A study of Mus musculus with 6 samples.

Results

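Ubiquitin-conjugating enzymes (E2s, the Ube2 genes) and ubiquitin-specific proteases (USPs, the Usp genes) were examined in mouse liver after tunicamycin. The members are the genes whose platform symbol starts with Ube2 plus a letter or with Usp plus a digit, leaving out Ube2j1, Ube2j2, Ube2g2, Ube2l6 and Usp18. This gave 82 genes, 30 Ube2 and 52 Usp, of 19057 genes with a symbol on the array. Each gene was read from its probe with the highest mean bead signal. The array software gives each probe a detection p against its background, and a gene was tested where at least 3 arrays gave a detection p under 0.05. That left 54 of the 82, made up of 23 Ube2 genes and 31 Usp genes. Levels are log2 intensities after background correction and quantile normalization. Changes were tested with limma, with p-values adjusted over all items of the array and called under 0.05.

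The animals were C57Bl/6N mice, 8 weeks old. They were given tunicamycin at 2.5 mg/kg or an equal volume of vehicle into the peritoneum, and the liver was taken 12 hours later. The label protocol names PBS with glucose as the diluent of tunicamycin dissolved in DMSO. There were 3 vehicle and 3 tunicamycin samples, 1 Illumina bead array each. No allele, transgene or sex is given in the sources used here, nor whether an array holds 1 animal or a pool, so the p-values measure the spread between these arrays.

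Ubiquitin is attached to proteins in a cascade. An E1 enzyme activates it, an E2 carries it on a cysteine, and an E3 ligase directs it to a substrate. Related enzymes carry the ubiquitin-like proteins SUMO and NEDD8. Deubiquitinases, of which the USPs are the largest family, cut ubiquitin off again, which spares proteins from the proteasome, edits chains or resets a signal. Tunicamycin blocks N-glycosylation and loads the endoplasmic reticulum (ER) with misfolded proteins, many of which are destroyed by the ubiquitin-proteasome system.

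Across the arrays, between 15503 and 16603 of 45281 probes were detected, and the median raw signal ran from 88.9 to 96.8. Arrays correlated at 0.989 to 0.995 within a group and at 0.889 to 0.903 between groups, across probes, which are not independent replicates. Hepatocyte markers were abundant, with a mean log2 intensity of 12.21 to 12.34 over 6 tested genes on vehicle arrays and 11.55 to 11.69 on tunicamycin arrays, and 4 of the 6 were lower. Of all items tested, 31.4% were lower. Alb and Tat were not tested. Macrophage and Kupffer cell markers were lower after tunicamycin in 9 of 10 measured genes, with a list mean of 7.44 to 7.88 on vehicle arrays and 5.79 to 6.99 on tunicamycin arrays. The part of these cells in the results below was not tested. In whole liver, fewer cells of a type and less RNA per cell cannot be told apart.

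Promoter letters were read for the members with the largest called changes, to show the DNA next to the start of genes that rose or fell. RefSeq promoter windows in GRCm38.p6 run from 250 bases before a gene's start to 50 after it, and 64 of the 82 members matched one. Usp36 and Usp16, which had the highest rises, and Usp2, which had the largest fall among the Usp genes, are printed below 5′ to 3′ on the gene's strand. Capitals mark TGACGT, the core of the cyclic AMP response element bound by CREB and ATF proteins, a motif chosen after the sequences were seen.
Usp36, GRCm38.p6 chr11:118290195-118290494, minus strand: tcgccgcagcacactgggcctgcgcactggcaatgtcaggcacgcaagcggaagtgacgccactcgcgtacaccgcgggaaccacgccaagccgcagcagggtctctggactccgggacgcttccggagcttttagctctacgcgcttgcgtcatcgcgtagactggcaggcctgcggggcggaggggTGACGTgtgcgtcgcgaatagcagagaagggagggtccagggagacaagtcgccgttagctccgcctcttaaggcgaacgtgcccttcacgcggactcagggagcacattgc
Usp16, GRCm38.p6 chr16:87454735-87455034, plus strand: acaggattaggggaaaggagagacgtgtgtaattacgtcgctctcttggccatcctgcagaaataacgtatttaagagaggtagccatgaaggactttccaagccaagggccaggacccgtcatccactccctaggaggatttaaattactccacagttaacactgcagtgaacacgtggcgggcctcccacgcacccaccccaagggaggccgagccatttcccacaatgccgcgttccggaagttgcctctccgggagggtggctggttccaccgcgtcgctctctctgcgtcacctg
Usp2, GRCm38.p6 chr9:44084670-44084969, plus strand: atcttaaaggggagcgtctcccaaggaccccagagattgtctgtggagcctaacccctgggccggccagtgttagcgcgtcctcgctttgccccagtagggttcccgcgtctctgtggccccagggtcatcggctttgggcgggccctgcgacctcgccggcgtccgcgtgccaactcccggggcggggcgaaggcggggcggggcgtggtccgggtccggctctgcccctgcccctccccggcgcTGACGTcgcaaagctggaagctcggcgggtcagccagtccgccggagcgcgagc

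The Usp36 and Usp2 windows each held 1 TGACGT, starting 62 bases before the start in Usp36 and 4 bases before it in Usp2. The Usp16 window held none. On both strands, TGACGT was in the windows of 2 of 12 members that rose, 2 of 8 that fell and 10 of all 64, against 8.37% of 27025 genes in the table. Only members with a window are counted, which were 12 of the 19 that rose and 8 of the 9 that fell. Longer elements of the ER stress response were also searched on both strands. TGACGTGG, the ATF6 and XBP1 site, which contains TGACGT, was in 0.714% of all genes. TGATGCAA, the C/EBP-ATF element, was in 1.03%, and the ER stress element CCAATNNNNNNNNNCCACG, which contains CCAAT, in 0.137%. None of these letters occurred in any of the 64 member windows. The CCAAT box alone was in 21 of all 64 members, 3 of 12 that rose and 2 of 8 that fell, against 41.1% of all genes. These are letter matches in short windows and describe no binding.

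About as many members rose as the array's background gives, and fewer fell. Of 54 tested members, 19 rose and 9 fell, at an adjusted p under 0.05 in limma. These shares are 35.2% higher, against 31.0% of all 11674 items tested, and 16.7% lower, against 31.4%. In either direction, 28 members (51.9%) were called, against 62.5% of all items. The median log2 fold change was 0.16 for the members and -0.01 for all items. At least 2-fold, 4 members were higher and 2 lower, against 11.1% and 11.6% of all items. The median size of the log2 fold change, sign ignored, was 0.31 in the members and 0.47 over all items. Vehicle and tunicamycin arrays did not overlap in 34 members (63.0%), against 66.7% of all items.

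**Figure D1:**
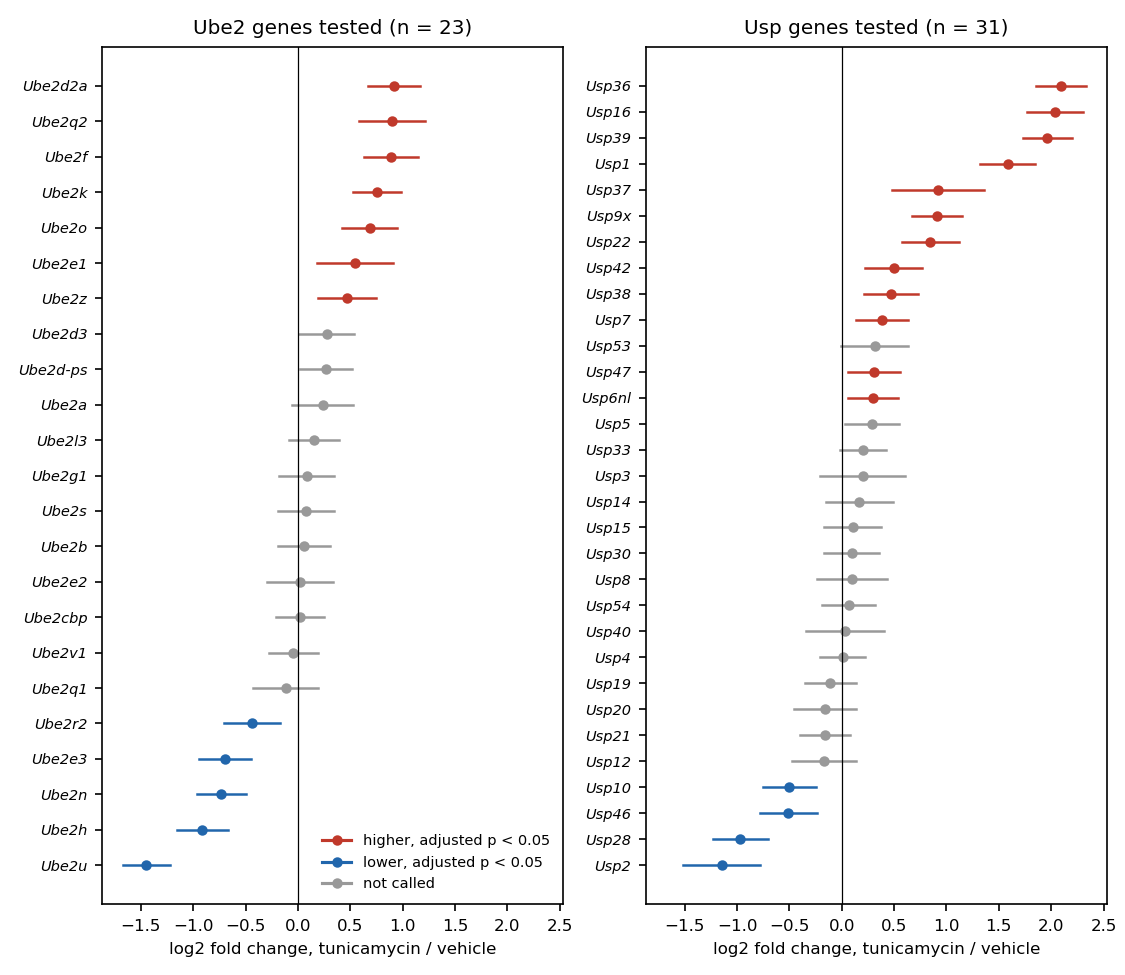
Log2 fold change of tunicamycin over vehicle for the 23 Ube2 genes (left) and 31 Usp genes (right) that were tested, as points with 95% confidence intervals from limma. Red genes rose and blue genes fell at an adjusted p under 0.05, and grey genes were not called. Usp36, Usp16, Usp39 and Usp1 lie above 1, and Usp2 and Ube2u below -1; the values of Usp9x and Ube2u are against a group in which no array detected them.

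The families had unequal counts, though the difference between them was not tested. Among the Ube2 genes 7 rose and 5 fell (30.4% and 21.7%, against 31.0% and 31.4% of all items). Their log2 fold changes had a median of 0.08 and ran from -0.91 to 0.92, leaving out Ube2u, which no tunicamycin array detected. Among the Usp genes 12 rose and 4 fell (38.7% and 12.9%), with a median of 0.20 and a range from -1.15 to 2.10. The Ube2 genes had 0 rises of at least 2-fold and the Usp genes 4.

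**Figure D2:**
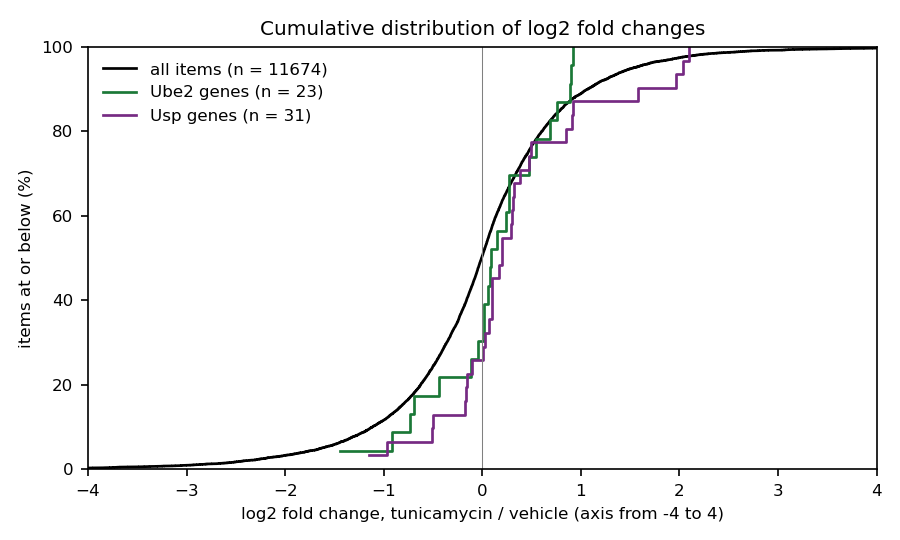
Cumulative percentage of items at or below each log2 fold change, for all 11674 items (black), the 23 Ube2 genes (green) and the 31 Usp genes (purple); the x axis is limited to -4 to 4. The Usp curve reaches 2.10 and the Ube2 curve ends at 0.92, while the curve of all items extends past both ends of the axis.

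The largest rises were in 4 Usp genes that act in the nucleus. Usp36 is a nucleolar deubiquitinase that stabilises parts of the ribosome-making machinery. Its log2 intensity was 6.10, 6.34 and 6.19 on the vehicle arrays and 8.29, 8.30 and 8.33 on the tunicamycin arrays. The groups were far apart and the tunicamycin arrays nearly level, a 4.28-fold rise (log2 fold change 2.10 ± 0.11 SE, adjusted p = 1.23e-07 in limma). Without background correction its log2 fold change was 1.40.

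Usp16 removes ubiquitin from histone H2A. It read 7.86, 7.89 and 7.58 after vehicle and 9.70, 9.82 and 9.92 after tunicamycin, so that the lowest tunicamycin array stood well above the highest vehicle array. The rise was 4.10-fold, with a log2 fold change of 2.04 ± 0.12. Its second detected probe did not show this rise, at 0.16 ± 0.13 on the log2 scale (limma adjusted p = 0.329). That probe was dim, with a mean raw signal of 99.3 against 653 for the one used. With the mean of both probes the log2 fold change was 1.10, still called.

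Usp39 is a USP-fold protein of the spliceosome that lacks protease activity. Its levels were 8.14, 8.12 and 8.32 on vehicle and 10.17, 10.12 and 10.18 on tunicamycin arrays, a 3.90-fold rise (log2 fold change 1.96 ± 0.10). All 4 of its detected probes rose, by 1.62 to 1.96 on the log2 scale.

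Usp1 deubiquitinates FANCD2 and PCNA during DNA repair, together with its activator WDR48. The vehicle arrays gave 5.15, 5.31 and 5.50 and the tunicamycin arrays 6.83, 7.0 and 6.89. It rose 3.0-fold (log2 fold change 1.58 ± 0.12), and its 3 detected probes rose by 1.26 to 1.58. Without background correction the value was 0.76, still called.

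**Figure D3:**
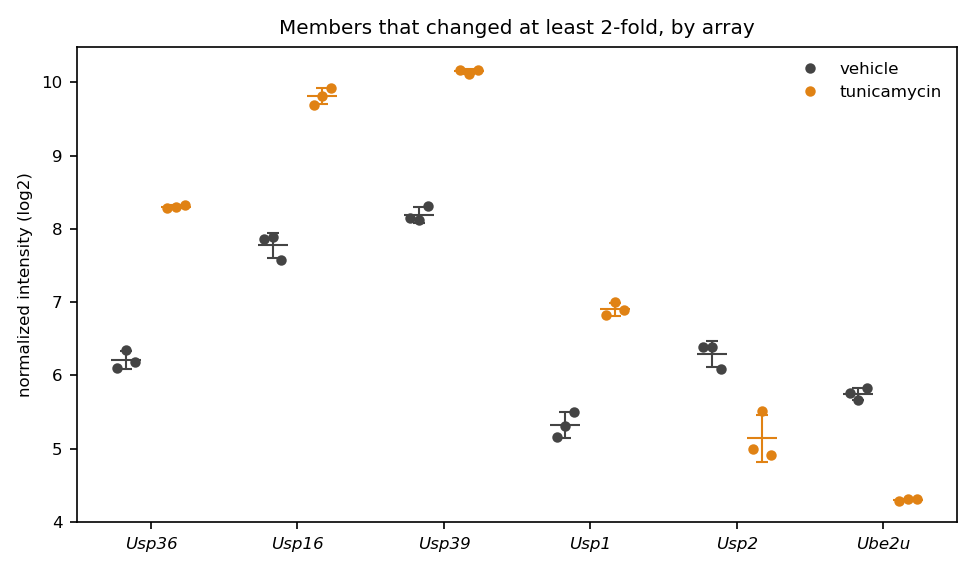
Normalized log2 intensity on each array for the 6 members that changed at least 2-fold; dark grey points are the 3 vehicle arrays and orange points the 3 tunicamycin arrays, with bars at the mean ± SD. In no gene do the groups overlap, which the rule for naming these members required. Usp2 shows the widest spread among its tunicamycin arrays, from 4.92 to 5.51.

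Usp37, which acts on cyclin A in cell cycle entry, also rose. It was named after its value was seen, at 5.62, 4.84 and 5.24 on vehicle arrays and 6.39, 6.19 and 5.89 on tunicamycin arrays. The fold was 1.89 with a wide error (log2 fold change 0.92 ± 0.20). With Usp36 and Usp39 it makes 3 of 3 tested genes that rose in the list for nucleolus, splicing and cell cycle, against 31.0% of all items. The list is short, was chosen with earlier results of these data known and holds 2 of the 4 members with the largest rises. Usp48 of the same list was detected on no array. Markers of dividing cells were dim, and of 10 listed 4 were tested. Their mean level was 4.56 to 4.83 on vehicle and 4.56 to 4.60 on tunicamycin arrays, where 1 gene rose and 2 fell, and their part in the rise of Usp37 was not tested.

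Of 10 tested USPs that work on chromatin or in DNA repair, 6 rose and 2 fell (60.0% and 20.0%, against 31.0% and 31.4% of all items). Their median log2 fold change was 0.35. This list was chosen with earlier results of these data known and holds 2 of the 4 members with the largest rises. Besides Usp16 and Usp1, Usp22 rose, the deubiquitinase of the SAGA transcription coactivator. Its arrays gave 7.73, 7.55 and 7.35 with vehicle and 8.47, 8.33 and 8.38 with tunicamycin, with no overlap. The rise was 1.80-fold (log2 fold change 0.85 ± 0.12), and both of its detected probes rose.

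Usp7, which stabilises MDM2 and p53, rose 1.31-fold. The vehicle arrays read 8.64, 8.54 and 8.79 and the tunicamycin arrays 9.11, 8.95 and 9.07, groups that were close but apart. Its log2 fold change was 0.39 ± 0.11 (limma adjusted p = 0.0119), and the call ended without vehicle replicate 2 (limma adjusted p = 0.0536). Of its 3 detected probes 2 rose, and the dimmest had a log2 fold change of -0.06.

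Usp42 and Usp47, the latter linked to base excision repair, completed the rises of this group. Usp42 rose 1.41-fold, with vehicle arrays from 6.23 to 6.58 and tunicamycin arrays from 6.78 to 6.91. Usp47 rose 1.24-fold by its brightest probe (limma adjusted p = 0.0359), but the other 5 of its 6 detected probes were not called. Its call ended in 6 of 15 alternative settings.

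Usp10, which acts on p53 and binds the stress granule protein G3BP1, fell. It read 5.53, 5.42 and 5.61 after vehicle and 5.04, 4.87 and 5.15 after tunicamycin, a 1.41-fold difference with no overlap (log2 fold change -0.50 ± 0.11, limma adjusted p = 0.00342). Its dimmer probe had a log2 fold change of -0.11 and was not called. The value was -0.17 without background correction, -0.26 with an offset of 50 and -0.30 with the mean of its probes, each still called. Usp28, which acts in the DNA damage response and on MYC, fell 1.96-fold (log2 fold change -0.97 ± 0.12), from 5.43 to 5.68 on vehicle arrays down to 4.48 to 4.74. It was dim, with a mean raw signal of 110, and was detected on 2 of 3 tunicamycin arrays. The uncalled genes of the group were Usp3 and Usp21, with log2 fold changes of 0.20 and -0.16.

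USPs of the proteasome, of free ubiquitin chains and of the ER gave no call in 5 tested genes, where 62.5% of all items were called. Their log2 fold changes lay between -0.16 and 0.29. This list too was chosen with earlier results of these data known. Usp14, which trims ubiquitin chains at the proteasome, read 4.77, 4.80 and 4.96 on vehicle arrays and 4.82, 4.88 and 5.32 on tunicamycin arrays. The groups overlapped, and the 95% interval of its log2 fold change ran from -0.15 to 0.49. Its probe was dim, with a mean raw signal of 105.3, which limits what the missing call can show. Usp19, one form of which is anchored in the ER membrane, had vehicle arrays at 7.94, 8.12 and 8.22 and tunicamycin arrays at 8.03, 7.99 and 7.93. Its interval was -0.36 to 0.14, so a change of 1.5-fold lay outside it.

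Usp5, which takes apart unanchored chains, came close to the threshold. It read 6.35, 6.32 and 6.60 with vehicle and 6.62, 6.80 and 6.72 with tunicamycin, with a log2 fold change of 0.29 ± 0.12 (limma adjusted p = 0.051). It was called in 5 of 15 alternative settings. Usp33 read 9.25, 9.20 and 9.12 and then 9.39, 9.40 and 9.38, with a log2 fold change of 0.20 and no overlap. It too was called in 5 of 15 settings, and its second probe rose by 0.28 (limma adjusted p = 0.0438). Usp20 had a log2 fold change of -0.16. Usp13 and Usp25, both linked to ER-associated degradation, were detected on no array, so no change of theirs could be assessed.

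Usp30, a deubiquitinase of the mitochondrial outer membrane that opposes mitophagy, was at 5.55, 5.80 and 5.75 on vehicle and 5.95, 5.75 and 5.69 on tunicamycin arrays. The groups overlapped (log2 fold change 0.10 ± 0.12).

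Among 7 tested USPs of endosomes and signalling, 1 rose and 2 fell (14.3% and 28.6%, against 31.0% and 31.4% of all items). Usp2, a clock-driven gene of liver whose product acts on clock proteins, fell most. Its levels were 6.39, 6.39 and 6.08 after vehicle and 5.0, 5.51 and 4.92 after tunicamycin. Every tunicamycin array lay below every vehicle array, and replicate 2 was the highest of them. The fall was 2.21-fold (log2 fold change -1.15 ± 0.17, adjusted p = 0.000173 in limma). Without background correction the log2 fold change was -0.47, still called. Only 1 of its 4 probes was detected well enough to enter the test.

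Usp46, which like Usp12 is activated by WDR48, fell 1.42-fold, with vehicle arrays from 6.27 to 6.67 and tunicamycin arrays from 5.95 to 6.01. Its second probe, at -0.17 on the log2 scale, was not called. Usp12 was not called either, at -0.17 by its single detected probe.

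Usp9x, a large X-linked deubiquitinase of endosomes and cell polarity, was the only tested member that no vehicle array detected. It read 4.47, 4.37 and 4.35 there and 5.29, 5.20 and 5.43 on tunicamycin arrays, where all 3 detected it. With the main processing it was 1.71-fold higher, with vehicle set to the higher of its own value and the lowest detected value per array. It entered the test through the tunicamycin arrays alone, so the filter favoured a rise. Fitted over all items with no detection filter, it was also called (limma adjusted p = 0.000192). That fit used the same array values and is no separate support. The log2 fold change of Usp9x was 0.91, but 0.27 without background correction and 1.39 in the second deposited table.

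Usp8, which protects receptors at endosomes, had vehicle arrays at 6.00, 5.98 and 5.46 and tunicamycin arrays at 5.87, 5.85 and 6.01. Vehicle replicate 3 stood below the rest, and the log2 fold change was 0.09 ± 0.15. The other probe of Usp8 did rise, by 0.52 ± 0.11, and was nearly as bright, with a mean raw signal of 129.1 against 133.4. With the mean of both probes the log2 fold change was 0.31, which was called (limma adjusted p = 0.0324). Usp15, a regulator of TGF-beta signalling, overlapped between groups at 4.97, 5.19 and 4.89 against 4.98, 5.27 and 5.10. Usp4 was at 6.89 in both groups.

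Most tested E2s for ubiquitin fall in 1 list, of which 6 of 18 rose and 5 fell. These shares are 33.3% and 27.8%, close to the 31.0% and 31.4% of all items, and the median log2 fold change was 0.12. The largest rise was in Ube2d2a, of the Ube2d group that serves many E3 ligases, at 1.89-fold. It was named after its values were seen, which were 8.47, 8.19 and 8.29 on vehicle and 9.27, 9.18 and 9.26 on tunicamycin arrays. Its close relative Ube2d3 read 7.35, 7.06 and 7.02 with vehicle and 7.37, 7.46 and 7.42 with tunicamycin. Vehicle replicate 1 nearly reached the tunicamycin arrays, and the log2 fold change of 0.27 ± 0.12 missed the threshold (limma adjusted p = 0.0666). It was called in 4 of 15 alternative settings, and the dimmer of its 2 probes rose by 0.56. Genes of the Ube2d and Ube2e groups have close relatives, and whether their probes bind transcripts of more than 1 gene was not tested.

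Ube2k builds chains that target proteins to the proteasome and is known for binding huntingtin. It went from 9.33, 9.54 and 9.47 to 10.18, 10.20 and 10.23, with tight tunicamycin arrays. The rise was 1.69-fold (log2 fold change 0.76 ± 0.10, limma adjusted p = 0.000113), and its 2 detected probes rose by 0.76 and 0.74.

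Ube2o is a large enzyme that joins E2 and E3 activity and is known from red cell maturation. Vehicle arrays gave 8.11, 8.40 and 8.28 and tunicamycin arrays 9.05, 8.82 and 8.98, a 1.61-fold rise (log2 fold change 0.69 ± 0.12). Erythroid markers went the other way, with 2 of 3 tested lower. Their mean level ran from 9.39 to 9.83 on vehicle and from 8.41 to 8.64 on tunicamycin arrays, and their part in the result was not tested.

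Ube2z is loaded by the E1 enzyme UBA6 instead of UBA1. It read 4.87, 5.01 and 5.27 with vehicle and 5.58, 5.52 and 5.45 with tunicamycin, a 1.39-fold rise (limma adjusted p = 0.00731). Uba6 itself had a log2 fold change of -0.29 (limma adjusted p = 0.0587). Ube2q2 rose 1.87-fold by its brightest probe, and all 3 of its probes rose, by 0.79 to 0.90 on the log2 scale, while Ube2q1 was not called by any of 3 probes. Ube2e1 rose 1.46-fold, with tunicamycin replicate 1 at 6.01 above the other two at 5.45 and 5.44. Its call ended in 3 of 15 settings, among them leaving out vehicle replicate 2.

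Ube2u fell below detection. It read 5.76, 5.67 and 5.83 on vehicle arrays and 4.29, 4.31 and 4.32 on tunicamycin arrays, where none detected it. With the main processing it was 2.30-fold lower, with the dim group floored as for Usp9x. Its log2 fold change was -0.48 without background correction and -0.71 with an offset of 50. It entered the test through the vehicle arrays alone, so the filter favoured a fall. With no detection filter it was also called (limma adjusted p = 9.79e-06), again from the same array values, which is no separate support. The other probe of Ube2u fell by 0.54 on the log2 scale.

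Ube2h, the E2 of the CTLH ligase complex, fell 1.88-fold, from 6.93, 6.67 and 6.84 to 5.85, 5.93 and 5.92. Ube2n, which with Ube2v1 builds chains used in NF-kappaB signalling and DNA repair, fell too. Its vehicle arrays were almost identical at 7.58, 7.57 and 7.57, and its tunicamycin arrays read 6.82, 6.75 and 6.96. The fall was 1.66-fold (log2 fold change -0.73 ± 0.10, limma adjusted p = 0.00015).

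Ube2v1, its catalytically inactive partner, was not called. It read 6.96, 6.94 and 7.06 against 7.03, 6.85 and 6.96, with a 95% interval of the log2 fold change from -0.28 to 0.19. The other partner, Ube2v2, was detected on no array.

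Ube2e3, an E2 of the Ube2e group, fell 1.62-fold, with vehicle arrays from 7.52 to 7.81 and tunicamycin arrays from 6.97 to 6.99. Of the same group Ube2e1 rose and Ube2e2 had a log2 fold change of 0.02. Ube2r2, which works with cullin-RING ligases, fell 1.36-fold and was detected on 1 of 3 tunicamycin arrays. Its arrays read 4.88, 4.78 and 4.92 and then 4.24, 4.44 and 4.59. The call ended without background correction (limma adjusted p = 0.0569).

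Ube2l3, which serves HECT and RBR ligases including parkin, had vehicle arrays at 9.58, 9.64 and 9.80 and tunicamycin arrays at 9.89, 9.75 and 9.84. The groups overlapped, and its interval of -0.09 to 0.39 left out a change of 1.5-fold. Ube2a, Ube2b and Ube2g1 were likewise not called, at log2 fold changes of 0.24, 0.06 and 0.08.

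Ube2f, which loads NEDD8 onto a cullin, was the only tested member in the list of E2s for ubiquitin-like proteins. It went from 9.36, 9.70 and 9.55 to 10.42, 10.38 and 10.48, well apart. The rise was 1.85-fold (log2 fold change 0.89 ± 0.12, limma adjusted p = 8.11e-05), and all 4 of its probes rose, by 0.67 to 0.89. Ube2m, the other E2 for NEDD8, was not analysed here. Of the E1 enzymes, Uba3, which activates NEDD8, rose 1.47-fold.

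E2s of the cell cycle were at or below the detection limit. Ube2s, which extends chains on substrates of the anaphase-promoting complex, read 4.54, 4.68 and 4.38 and then 4.74, 4.61 and 4.47, and was detected on 2 of 3 arrays in each group. Ube2c, which starts those chains, and Ube2t of the Fanconi pathway were detected on no array.

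Some tested members carry family names without being such enzymes. Usp6nl, a GTPase-activating protein for RAB5, rose 1.23-fold (limma adjusted p = 0.0332), a call that ended in 6 of 15 settings. Ube2cbp, a protein that binds an E2, had a log2 fold change of 0.02. Of the 5 tested members in no list 1 rose (20%, against 31.0% of all items), which was Usp38 at 1.39-fold. Ube2d-ps, Usp40, Usp53 and Usp54 were not called, at values from 0.03 to 0.32, and the symbol of Ube2d-ps marks a pseudogene.

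The 28 members that were not tested include 25 detected on no array. The other 3 were Ube2d1, Ube2dnl2 and Usp45. Among the 25 were 4 Usp17 genes, Usp26 and Usp29, and the Y-linked Usp9y. Usp46os2, whose symbol marks an opposite-strand transcript, was also among them. With no detection filter, 20 of 82 members rose and 9 fell. In that fit 11.7% of 29453 items were higher, and 23.3% were called in either direction. Of those items 11674 had passed the filter, so these shares cannot be set against the 62.5% of the main fit.

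Probes of 1 gene did not always give the same call. Of 27 members with several detected probes, 19 had the same call on all of them, 8 had called and uncalled probes, and 0 had calls in opposite directions. The 19 include genes with every probe uncalled, such as Ube2b and Ube2g1. The range over probes exceeded 1.5-fold in 4 genes, Usp16, Ube2u, Usp36 and Usp7.

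**Figure D4:**
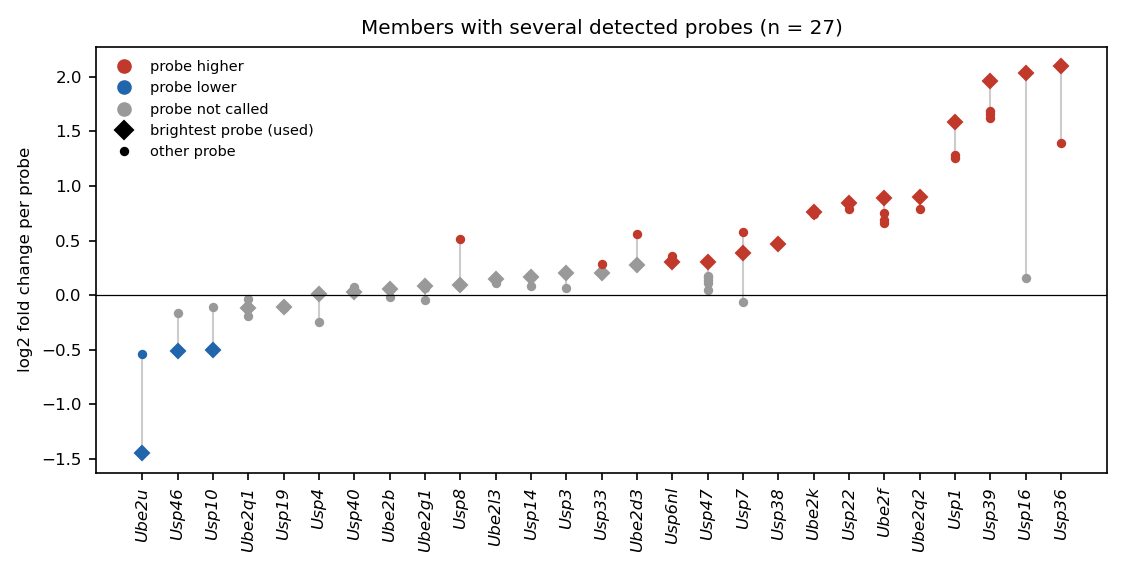
Log2 fold change of every detected probe for the 27 members with several; diamonds are the brightest probe, used for the gene, and circles the other probes. Red probes rose, blue fell and grey were not called. The probes of Usp39, Usp1, Ube2f and Ube2q2 all rose, while those of Usp16 lie at 2.04 and 0.16.

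Other genes of the cascade were counted from lists of related genes. Of 7 tested E1 genes 2 rose and 2 fell (28.6% each, against 31.0% and 31.4% of all items). Uba7, the E1 for the interferon-induced protein ISG15, fell 3.48-fold, from 8.14, 7.96 and 7.65 to 6.02, 6.13 and 6.20. Atg7, the E1-like enzyme of autophagy, fell 1.75-fold. Of 5 tested genes of ubiquitin-like proteins 1 rose and 1 fell (20% each, against the same shares of all items). Sumo2 rose 1.57-fold and Isg15 fell 1.24-fold, a call that ended in 8 of 15 settings.

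Of the deubiquitinases outside the USP family, OTU proteases rose in 4 of 10 and fell in 0. These shares are 40% and 0%, against 31.0% and 31.4% of all items. Yod1, which works with the ATPase p97 in ER-associated degradation, rose 2.32-fold, from 7.57, 7.15 and 7.21 to 8.39, 8.50 and 8.69. Otud6b rose 2.06-fold, a log2 fold change of 1.04 that was 0.33 without background correction, 0.52 with an offset of 50 and 1.35 in the second deposited table. Otub1 rose 1.34-fold, uncalled without tunicamycin replicate 1 (limma adjusted p = 0.0524). Of 7 UCH and Josephin genes 1 rose and 1 fell (14.3% each, against 31.0% and 31.4% of all items). Josd2 rose 1.88-fold and Uchl4 fell 1.29-fold, a call that ended in 6 of 14 settings. JAMM-domain genes rose in 3 of 9 and fell in 2 (33.3% and 22.2%). Brcc3 rose 1.70-fold, Eif3f, a translation factor subunit, 1.70-fold, and Mpnd fell 1.46-fold.

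Cyld, which removes chains from NF-kappaB regulators, and the proteases for SUMO rose in 6 of 7 tested genes (85.7%, against 31.0% of all items) and fell in 0, with a median log2 fold change of 1.03. Senp2 rose 4.29-fold, from 7.94, 7.73 and 7.65 to 9.83, 9.79 and 10.01. Cyld rose 3.15-fold, from 8.31, 8.17 and 8.06 to 9.92, 9.89 and 9.70. Uspl1, a SUMO protease with a USP-like fold, rose 2.80-fold, from 8.51, 8.55 and 8.46 to 9.97, 9.89 and 10.12. These 3 were named as the largest called changes of the list. The groups did not overlap in 6 of its 7 tested genes (85.7%, against 66.7% of all items). The list was chosen with earlier results of these data known.

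Cofactors of USPs went both ways, with 2 of 8 higher and 2 lower (25% each, against 31.0% and 31.4% of all items). G3bp1, the partner of Usp10, rose 2.13-fold and its relative G3bp2 fell 1.45-fold. Gmps, a GMP synthetase that activates Usp7, rose 1.42-fold. Of the 5 genes left out of the members, Ube2g2, Ube2j2 and Ube2j1, which serve ER-associated degradation, rose 2.69-fold, 2.44-fold and 1.58-fold. In the ISG15 system Ube2l6 rose 1.41-fold and Usp18 fell 5.82-fold.

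**Figure D5:**
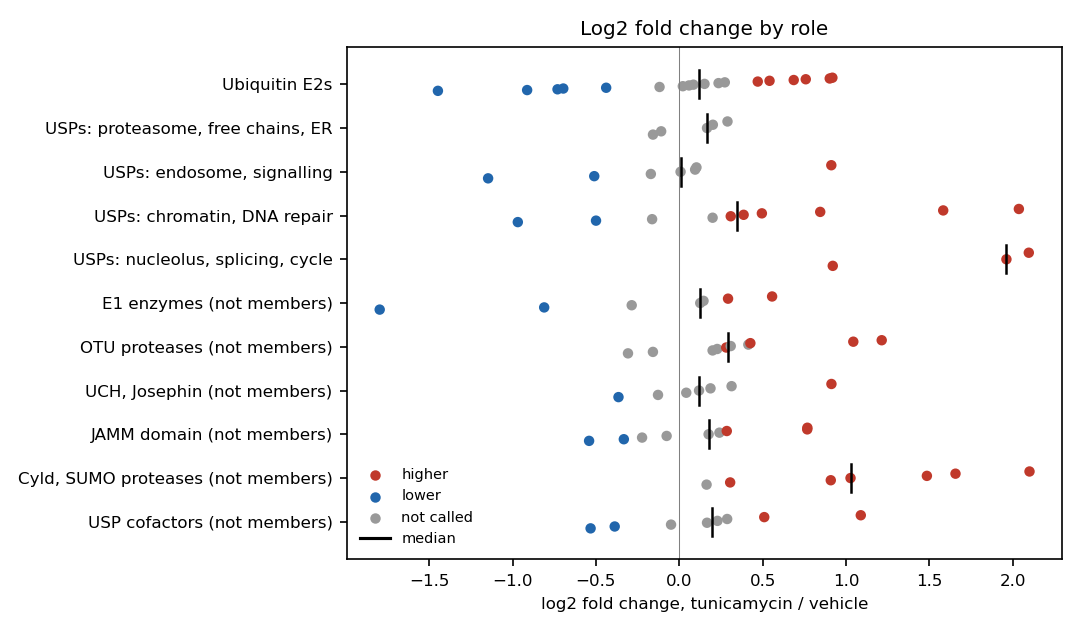
Log2 fold change of tested genes by role, for lists of members (top 5 rows) and of related genes that are not members (lower 6 rows); each point is a gene and the black bar the list's median. Red genes rose, blue fell and grey were not called. The USPs of the proteasome, free chains and ER hold 0 called genes, and the list with Cyld and the SUMO proteases has its median at 1.03.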

How the data were processed

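RNA of 6 liver samples was labelled with biotin and measured on an Illumina bead array. The deposited table holds a mean bead intensity and a detection p-value for each of 45281 probes per array, per the file headers. From the values, no background had been subtracted and the arrays had not been brought to a common scale. A second table deposited by the authors holds intensity values that, from the values, were background-subtracted and quantile-normalized, with 99.97% of ranked values within 0.1 across arrays, and served as an alternative. The sources used here name no scanner or software.

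In limma 3.58.1 on R 4.3.3, normexp took the background from the detection p-values and added an offset of 16, followed by quantile normalization and log2. The offset understates changes of dim genes. Gene names came from the platform annotation, checked by Entrez ID against RefSeq's GRCm38.p6 table (34885 probes had 1 symbol, 18 several, 10378 none, 0 updated). For each gene the probe with the highest mean raw signal was taken, unnamed probes stayed separate, and items detected (p under 0.05) on 3 or more arrays were tested, 11674 in all. Groups were compared by lmFit and eBayes, two-sided, with Benjamini-Hochberg adjustment over all items, and the procedure was tested on simulated data. Errors are standard errors unless stated. The number of arrays limits the precision.

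The members and lists were chosen with earlier results of these data known. Members named with every array were those changed at least 2-fold without overlap and 28 index members, and the lists of related genes gave up to 3 with the largest called change. Other members were named after their values were seen. Same-numbered arrays did not deviate together (correlations 0.12, 0.05 and 0.00), so replicate numbers served as names. The 15 alternatives covered background, offset, scaling, filter, source table, probe summary, variance model, a replicate block and leaving out each array.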

Additional observations from a re-analysis of the deposited data

How the results depend on the processing

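Of 28 called members, 23 kept their call in all 15 alternatives or in those that could test them, and 20 of 26 uncalled members stayed uncalled. The exceptions among the called were Ube2e1, Ube2r2, Usp47, Usp6nl and Usp7. With detection required on all 6 arrays 3 E2 members were lower in place of 5, because Ube2u and Ube2r2 were then not tested. The other counts stayed within 1.5 times, with 6 to 9 E2 members and 9 to 14 USP members higher and 3 to 4 USP members lower. The share of all items that were higher moved more, from 11.7% with no detection filter to 34% with detection on all 6 arrays. It was 31.0% in the main fit. Steady counts therefore do not show a steady standing against all items. The median log2 fold change ranged from 0.03 to 0.19 for E2 and from 0.06 to 0.25 for USP members. Leaving out 1 array gave 6 to 8 E2 and 9 to 12 USP members higher. With the replicate block 7 E2 and 11 USP members were higher and 5 and 4 lower, and Usp6nl alone lost its call; the numbers are not known to pair the arrays. Without background correction or with an offset of 50, the log2 fold change of Ube2u was -0.48 or -0.71, and in the second deposited table it was -2.09. Without background correction several log2 fold changes were over 1.5 times smaller, at 0.27 in Usp9x, 0.16 in Ube2z, -0.13 in Ube2r2, -0.17 in Usp10, -0.49 in Ube2n, -0.36 in Atg7, 0.34 in Brcc3, 0.25 in Gmps, 0.35 in Uba3, 0.23 in Otub1, -0.17 in Isg15 and -1.14 in Uba7. When probes were averaged Ube2u was -0.995 against -1.15 in Usp2, so their order turned. Low signal over background limits what can be said of the 28 untested members and of the dim Usp9x, Ube2r2, Ube2s and Ube2u. The same holds for Ube2d-ps, Usp12, Usp14, Usp15, Usp28 and Usp53, whose mean raw signals ran from 101.2 to 110.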
